A study of Oryza sativa with 6 samples.

Results

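The loci described here are 6 genes of trehalose phosphate metabolism and of the SnRK1 kinase in young rice grains. They are TPS1 (LOC_Os05g44210, chromosome 5), a trehalose phosphate synthase, TPP1 (LOC_Os02g44230, chromosome 2) and TPP7 (LOC_Os09g20390, chromosome 9), trehalose phosphate phosphatases, and the SnRK1 catalytic subunits OSK1, also called SnRK1A (LOC_Os05g45420, chromosome 5), OSK35 (LOC_Os03g17980, chromosome 3) and OSK24 (LOC_Os08g37800, chromosome 8). They were taken by identifier from a table of 39217 gene models, and all 6 were present and passed the filter on low counts. The symbols are assignments, because the table gives no names. The reference gene table holds 5 of the 6 symbols, all but TPS1, and places each of the 5 on the chromosome of its locus.

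Total RNA was sequenced from whole grains 3 days after pollination, with 3 libraries of the japonica wild type ZH11 and 3 of the mutant drw1, both grown in paddy fields. The labels do not describe the drw1 allele or a second line, so the mutant stands as a single genotype, nor do they tie libraries to separate plants, so that p-values reflect only how far these libraries scatter, which may be technical. The mutant columns carry the prefix C4 in place of drw1, in a table whose name gives ctf4 beside ZH11, and every direction below rests on their assignment to drw1. The targeted gene was not checked, since neither name is paired with a locus in the labels, the table or the reference.

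Trehalose 6-phosphate is made by trehalose phosphate synthase from UDP-glucose and glucose 6-phosphate, and is turned into trehalose by trehalose phosphate phosphatase. Plants keep it at low levels that follow sucrose, and in growing tissues it restrains SnRK1, the plant relative of yeast SNF1 and animal AMPK, which is active when sugar is scarce. In rice, SnRK1A is known for switching on reserve breakdown in sugar-starved seedlings, and TPP7 for germination under water.

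Library totals ran from 15582373 to 24147797 counts. Between the genotypes, 70.1% of the 23395 genes tested passed (edgeR's quasi-likelihood test, threshold on the adjusted p 0.05), with 35.7% higher in drw1 and 34.4% lower. With library totals in place of TMM factors (trimmed mean of M-values, which scale libraries by their typical gene), the 8356 higher and 8039 lower calls became 10375 and 6552, and the median log2 fold change of all genes moved from 0.03 to 0.19. Markers of grain tissues differed too. Of 9 loci assigned to endosperm storage proteins, 8 were in the table and all 8 fell. Their summed level was 250 to 267 CPM (read counts divided by library size after TMM scaling) in ZH11 and 7.37 to 8.19 CPM in drw1. Some of the 8 passed the filter on low counts only through ZH11, where they are high, so the count of falls is a description. Of 7 loci assigned to light-harvesting proteins of green tissue, 6 fell and 1 rose, with sums of 1300 to 1490 CPM in ZH11 and 804 to 872 CPM in drw1. The 1 rise, of 0.18 on the log2 scale, lost its call when any library other than ZH11 replicate 1 was left out, with DESeq2 or its size factors, and with a replicate block. The locus assigned to MADS29, a factor of the nucellus and seed coat, fell (115 to 130 CPM in ZH11, 83.4 to 84.7 CPM in drw1). The locus assigned to the embryo marker OSH1 had 7.98 to 8.62 CPM in ZH11 and 5.80 to 8.94 CPM in drw1 and did not pass the test. None of these markers was without counts in either genotype. Their part in the results below was not tested, and in whole grains fewer cells of a type and less RNA per cell cannot be told apart.

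Both phosphatases were lower in drw1 grains, 3.17-fold for TPP1 and 3.14-fold for TPP7, whereas the synthase and the 3 kinases were modestly higher. All 6 loci passed the test, 4 higher and 2 lower, against 70.1% of all genes tested, and in each of the 6 every library of a genotype lay to one side of the other genotype's, against 72.6% of all genes. Being called was thus common in this comparison. Of the 6, TPP1 and TPP7 were past 2-fold and no riser was; of all genes, 27.3% were past it, 14.6% lower and 12.7% higher.

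TPP1, whose enzyme removes the phosphate from trehalose 6-phosphate, had 172, 162 and 188 CPM in the 3 ZH11 libraries and 54.0, 49.95 and 60.75 CPM in the 3 drw1 libraries. The highest mutant library lay far below the lowest wild-type library. The mean fell from 174 ± 13.1 to 54.9 ± 5.45 CPM (SD, n = 3), which is -1.66 as a log2 fold change (standard error 0.08, adjusted p = 5.37e-12 by edgeR). Only 7.28% of tested genes had a lower fold change.

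TPP7, a second enzyme of the same step, had 168, 162 and 146 CPM in ZH11 and 49.2, 53.1 and 49.0 CPM in drw1. The genotypes were again far apart, and the lowest ZH11 library of TPP7 was the highest of TPP1. The mean fell from 158 ± 11.6 CPM to 50.5 ± 2.31 CPM (SD, n = 3), with a log2 fold change of -1.65 (standard error 0.07, adjusted p = 1.49e-12 by edgeR). The 95% intervals of the log2 fold changes were almost the same for the pair, -1.83 to -1.49 for TPP1 and -1.80 to -1.50 for TPP7. In ZH11 the loci stood above 95.3% (TPP1) and 94.5% (TPP7) of tested genes in mean CPM, and in drw1 above 81.3% and 79.4%. Libraries of a genotype varied more in these loci than counting alone gives: in ZH11 the coefficient of variation was 7.51% for TPP1 and 7.30% for TPP7, where the read numbers allow 1.77% and 1.87%.

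TPS1, which belongs to the synthases with catalytic activity, had 123, 128 and 132 CPM in ZH11 and 159, 157 and 147.5 CPM in drw1. All mutant libraries lay above all wild-type libraries, by a small margin for the third mutant library. The mean rose from 128 ± 4.36 CPM to 154 ± 6.10 CPM (SD, n = 3), with a log2 fold change of 0.27 (standard error 0.06, adjusted p = 0.000821 by edgeR). A higher fold change was found in 37.0% of tested genes, so the rise was of ordinary size in this comparison. Relative to the median of all genes it was 0.24 on the log2 scale, and 0.21 to 0.29 over the alternative settings.

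**Figure D1:**
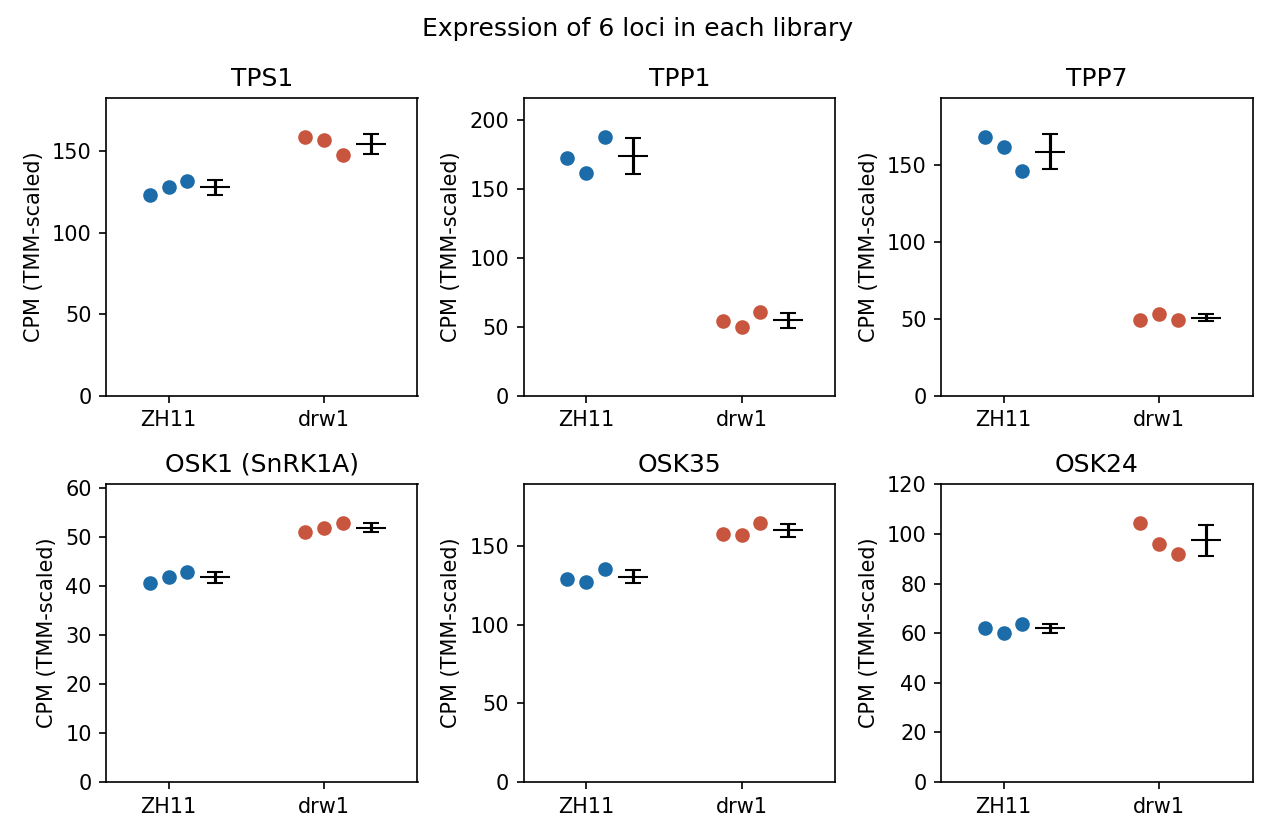
Expression of the 6 loci in each library, in CPM after TMM scaling on an axis from 0, with ZH11 in blue and drw1 in red; black bars give the mean and SD of 3 libraries. TPP1 and TPP7 drop from means of 174 and 158 CPM to 54.9 and 50.5 CPM, while the other 4 loci sit higher in every drw1 library.

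The 3 genes of the SnRK1 catalytic subunit, the kinase itself, all rose in drw1, with the highest fold change in OSK24. OSK24 had 62.0, 60.2 and 63.5 CPM in ZH11 and 104, 95.8 and 92.1 CPM in drw1. Its ZH11 libraries were tightly grouped and its drw1 libraries were more spread, with the first the highest. The mean rose from 61.9 ± 1.67 CPM to 97.4 ± 6.29 CPM (SD, n = 3), with a log2 fold change of 0.65 (standard error 0.07, adjusted p = 1.99e-07 by edgeR), which 20.9% of tested genes exceeded.

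OSK35, the most abundant of the kinase genes, had 129, 127 and 135 CPM in ZH11 and 158, 157 and 165 CPM in drw1. The mutant libraries lay above the wild type without overlap, and 35.9% of tested genes had a higher fold change. The mean rose from 130.5 ± 4.10 CPM to 159.9 ± 4.07 CPM (SD, n = 3), with a log2 fold change of 0.29 (standard error 0.06, adjusted p = 0.000344 by edgeR).

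OSK1, the SnRK1A kinase of the starvation response, was the least abundant, with 40.6, 41.9 and 42.9 CPM in ZH11 and 51.0, 52.0 and 52.9 CPM in drw1. Its libraries agreed closely within each genotype, with coefficients of variation of 2.85% and 1.83%, at or below the 3.63% and 3.31% that counting gives. The mean rose from 41.8 ± 1.19 CPM to 51.96 ± 0.95 CPM (SD, n = 3), with a log2 fold change of 0.31 (standard error 0.07, adjusted p = 0.000765 by edgeR). In 34.7% of tested genes the fold change was higher. Summed per length over the 3 kinases, the level went from 101 ± 2.80 to 132.5 ± 1.63 CPM per kilobase of gene model (SD, n = 3), 1.31-fold higher in drw1. Relative to the median of all genes, the log2 rises over the settings were 0.58 to 0.67 for OSK24, 0.24 to 0.31 for OSK35 and 0.25 to 0.33 for OSK1. OSK24 and OSK35 are related genes of one family. Whether they share reads was not tested, so their single values are uncertain to that extent.

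Levels of different genes were compared per kilobase of gene model, whose deposited lengths ran from 1819 bases for TPP1 to 5443 bases for TPS1. In ZH11 grains the phosphatases led, with 95.7 ± 7.19 CPM per kilobase for TPP1 and 76.8 ± 5.61 for TPP7, followed by OSK35 at 57.3 ± 1.80 (SD, n = 3). OSK24 (24.8 ± 0.67) and TPS1 (23.5 ± 0.80) had overlapping libraries and did not differ beyond their spread, and OSK1 was lowest at 18.8 ± 0.53. In drw1 the kinases OSK35 (70.2 ± 1.79) and OSK24 (39.0 ± 2.52) stood first. TPP1 (30.2 ± 3.00) and TPS1 (28.4 ± 1.12) overlapped, and TPP7 (24.5 ± 1.12) lay just above OSK1 (23.3 ± 0.43), with 23.78 in the lowest TPP7 library and 23.74 in the highest OSK1 library.

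**Figure D2:**
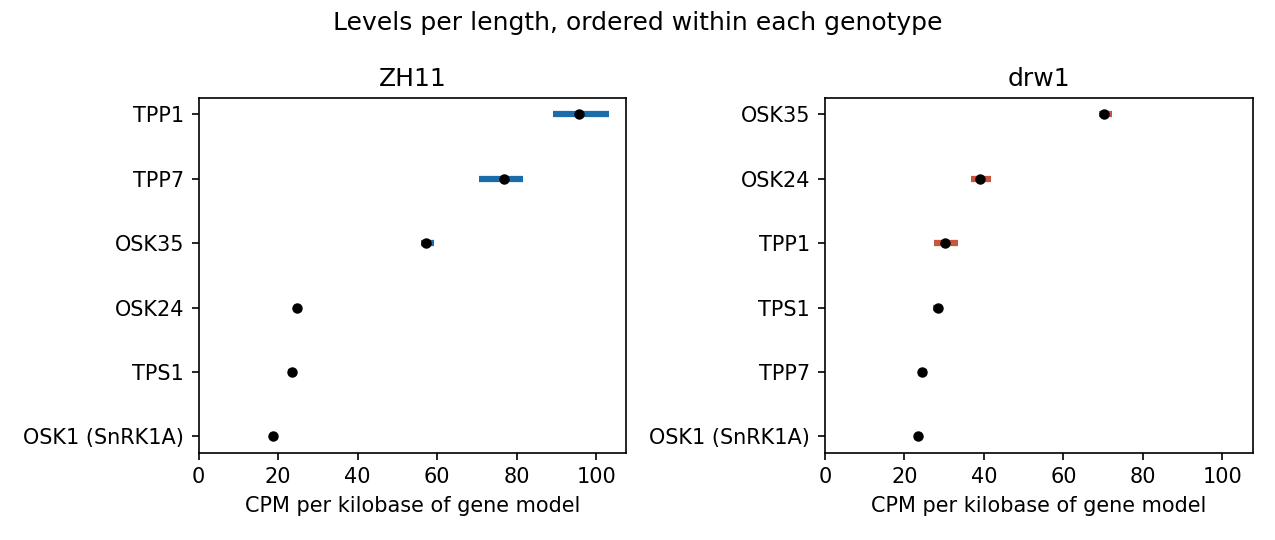
Level per length of each locus, in CPM per kilobase of gene model, ordered from highest to lowest within ZH11 (left) and drw1 (right); dots are means of 3 libraries and bars span the lowest to the highest library. TPP1 and TPP7 lead in ZH11 at 95.7 and 76.8, and OSK35 and OSK24 lead in drw1 at 70.2 and 39.0.

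Ratios between loci within a library do not depend on how libraries are scaled. TPS1 stood in a higher ratio to the 2 phosphatases in drw1: per length, TPS1 over the sum of TPP1 and TPP7 was 0.128, 0.141 and 0.139 in ZH11 and 0.545, 0.542 and 0.474 in drw1. The mean went from 0.136 ± 0.0068 to 0.520 ± 0.0401 (SD, n = 3), a 3.82-fold difference of geometric means. The exact two-sided permutation test gave p = 0.1, the smallest that 3 libraries against 3 allow, and p = 0.14 after Benjamini-Hochberg adjustment over the 7 ratios computed. By contrast, the ratio of TPP1 to TPP7 overlapped between genotypes, with 1.16, 1.14 and 1.46 in ZH11 and 1.24, 1.07 and 1.40 in drw1 (exact permutation p = 1, adjusted p = 1).

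Among the kinases, the share of OSK24 was higher in the drw1 libraries. It made up 24.9%, 24.4% and 24.5% of the summed per-length level of the 3 kinases in ZH11 and 31.2%, 29.3% and 27.8% in drw1. OSK35 went from 56.8% ± 0.22 to 53.0% ± 1.34 and OSK1 from 18.6% ± 0.39 to 17.6% ± 0.44 (SD, n = 3), without overlap between genotypes in any of the 3 shares (exact permutation p = 0.1, adjusted p = 0.14 for each). Shares of a sum are tied to each other, so the 3 are not separate results, and the test cannot go below 0.1. The ratio of OSK24 to OSK35 was 0.439, 0.431 and 0.429 in ZH11 and 0.603, 0.556 and 0.510 in drw1 (exact permutation p = 0.1, adjusted p = 0.14). The ratio of OSK1 to OSK35 stayed within narrow and overlapping ranges, 0.322 to 0.336 in ZH11 and 0.329 to 0.338 in drw1 (exact permutation p = 0.4, adjusted p = 0.47).

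**Figure D3:**
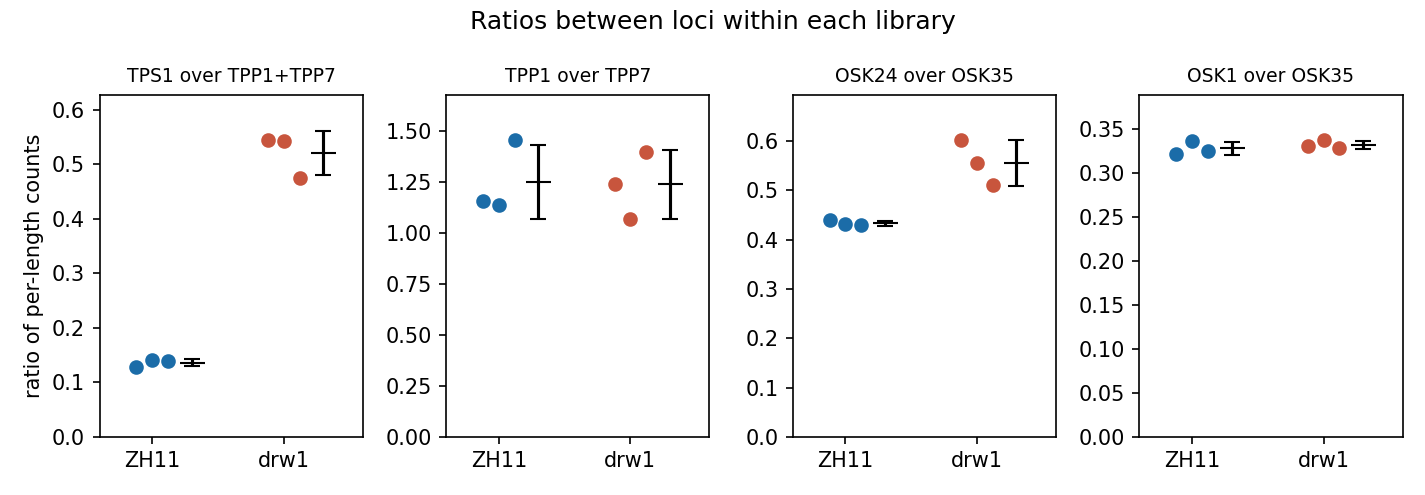
Ratios of per-length counts between loci in each library, on axes from 0, with ZH11 in blue and drw1 in red; black bars give the mean and SD of 3 libraries. The ratio of TPS1 to the sum of TPP1 and TPP7 rises from 0.136 to 0.520, OSK24 over OSK35 from 0.433 to 0.556, and the other 2 ratios overlap.

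The wider pathway was described from lists of loci assigned by family, 29 loci besides the 6, of which 28 were tested. Of these, 8 rose, 17 fell and 3 did not pass. The called share was 89.3% against 70.1% of all genes, and the median log2 fold change was -0.60 against 0.03. The lists were chosen with earlier results of these data known, and many of their loci are abundant. With the stricter filter, which keeps abundant genes, 11419 of 15063 genes were called. The 2 shares are thus a description and show no excess in the pathway. The table's identifiers are not paired with names, so list loci are given by role.

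Most other synthase-like loci fell, unlike TPS1. These proteins carry a synthase and a phosphatase domain, and most of the class lack measured synthase activity. Of 10 tested, 7 fell (log2 fold changes of -2.53 to -0.22), 2 rose (0.23 and 1.36) and 1 did not pass (0.02). Their median was -1.12 against 0.03 for all genes tested, of which 34.4% fell and 35.7% rose. Compared with the 0.27 of TPS1, 1 of the 2 risen loci was higher and the other lay within 1 standard error of it. Summed per length, the 11 loci went from 800.5 ± 22.5 to 419 ± 14.8 CPM per kilobase (SD, n = 3). TPS1 made up 2.93% ± 0.05 of that sum in ZH11 and 6.77% ± 0.11 in drw1.

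The other phosphatase loci mostly fell as well. Of 7 tested, 5 fell (-2.42 to -0.55), 1 rose (0.57) and 1 did not pass (-0.09), with a median of -0.65. Among all genes tested, 34.4% fell and 35.7% rose. An eighth had too few counts to be tested. The sum over all 10 loci of the family went from 343 ± 7.75 to 141 ± 0.88 CPM per kilobase (SD, n = 3). TPP1 and TPP7 together held 50.1%, 49.7% and 51.1% of it in ZH11 and 37.9%, 37.5% and 40.8% in drw1. TPP1 was among the highest of the 10 in both genotypes, but a different locus overlapped it in each. In ZH11 its libraries spanned 89.0 to 103 CPM per kilobase and those of the overlapping locus 93.7 to 95.6. That locus fell to 16.8 to 18.7 in drw1. In drw1 TPP1 spanned 27.5 to 33.4 and the overlapping locus, the 1 that rose, 28.6 to 32.0, from 19.2 to 21.3 in ZH11. TPP7 came next in both. The single locus assigned to trehalase, which splits trehalose into glucose, rose (log2 fold change 0.43, standard error 0.09, adjusted p = 0.000526 by edgeR), from 20.3 to 22.7 CPM in ZH11 to 27.0 to 31.5 CPM in drw1.

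Regulatory subunits of SnRK1 tether and tune the kinase. Of 2 loci assigned to them, the beta subunit rose (log2 fold change 0.83, standard error 0.08, adjusted p = 7.79e-08 by edgeR) and the beta-gamma subunit did not pass (0.16, standard error 0.09, adjusted p = 0.124 by edgeR). Both were higher under upper-quartile factors, under library totals and when ZH11 replicate 3 was left out.

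Loci of the sugar starvation response, in which SnRK1A acts through MYB factors on alpha-amylase genes, moved in both directions. All 8 passed the test, 3 higher and 5 lower, with a median of -0.69 against 0.03 for all genes. Of all genes tested, 70.1% passed, 35.7% higher and 34.4% lower, so being called was common here too. By role, a grouping made after the values were seen, 2 of 3 loci assigned to MYB factors rose (1.26 and 1.76) and 1 fell (-1.58). The MYB factors were grouped without regard to whether each activates or represses, so these directions give no reading of the response. The locus assigned to a CIPK kinase that acts upstream of SnRK1A fell (-1.89), as did both assigned to asparagine synthetases, enzymes linked to low sugar in plants (-0.92 and -0.46). Of the pathway loci, LOC_Os08g36910, assigned to an alpha-amylase, had the largest rise. It had 9.11, 7.44 and 8.39 CPM in ZH11 and 41.95, 41.7 and 41.1 CPM in drw1, with a log2 fold change of 2.33 (standard error 0.10, adjusted p = 9.44e-13 by edgeR). The largest fall was in another locus assigned to an alpha-amylase, LOC_Os08g36900, with 97 counts over ZH11 and 11 over drw1 (log2 fold change -2.98, standard error 0.51, adjusted p = 5.42e-05 by edgeR). This second locus passed the filter on low counts only through ZH11, where it is high, so its fall adds no support to the count of falls. Copies of this family may share reads, so the values of both loci are uncertain to that extent.

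**Figure D4:**
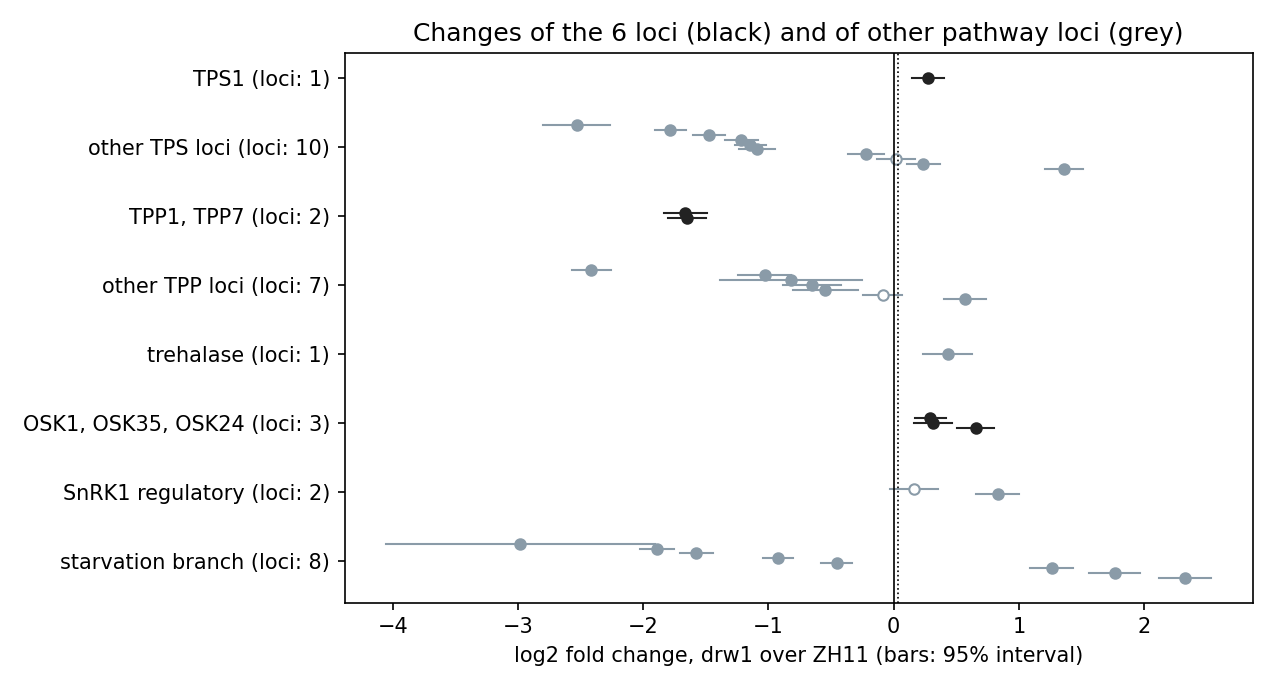
Log2 fold changes, drw1 over ZH11, of the 6 loci (black) and of 28 other tested pathway loci (grey) by family, with 95% intervals; open circles did not pass the test, and the dotted line marks the median of all genes (0.03). TPP1 and TPP7 lie at -1.66 and -1.65 among mostly lowered phosphatases, and TPS1 at 0.27 lies above most other synthase-like loci.

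Likeness of pattern was measured as Pearson's r of log2 CPM over the 6 libraries, among tested loci within 1 log2 unit of the same mean level, as a description with no test. For OSK24, the member with the highest fold change, the most alike of 5467 loci was LOC_Os03g49520 (r = 0.997), which went from 53.7 ± 2.30 to 84.1 ± 4.08 CPM (SD, n = 3). For TPP1, the member with the lowest, it was LOC_Os01g58870 (r = 0.999 among 4470 loci), which went from 197 ± 13.8 to 84.5 ± 6.24 CPM (SD, n = 3). The 6 points form a pair of genotype groups, so high values are frequent: 44 loci for OSK24 and 360 for TPP1 had r over 0.99.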

How the data were processed

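RNA-seq of 6 libraries was used. Each gene model has a raw read count in every library and a length in bases, as deposited and per the file headers. The submitters' processing notes name featureCounts, HISAT2, fastp and DESeq; their versions, the genome build, annotation, strand setting and handling of shared reads were not given in the sources used here. The reference gene table, of assembly ASM3414082v1, holds 0 of the 39217 identifiers, so symbols are assignments. For 29 of 57 list loci the reference has the symbol, and for all 29 an entry lies on the chromosome of the locus. Some of these symbols, of phosphatases and hexokinases, also have an entry on another chromosome, so that their match is not unique.

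Genotypes were compared with edgeR 4.0.16 (R 4.3.3; quasi-likelihood test, two-sided, genotype only, TMM factors, default filter on low counts), with Benjamini-Hochberg adjustment over 23395 genes and a threshold of 0.05. Approximate standard errors were computed from the F statistic. On simulated counts, the share of unchanged genes among calls was above the threshold, and some 1.5-fold and 2-fold changes were missed. Far fewer genes were changed in the simulation than were called in these data, so neither outcome carries over to them. Ratios were tested by exact permutation over libraries. Besides the 6 members, named loci are the largest called rise and fall among the pathway lists and the locus most alike in pattern to the member with the highest and the lowest fold change. Alternatives were DESeq2 size factors, upper-quartile factors, library totals, no filter, a filter of 10 CPM in 3 libraries, DESeq2 1.42.0, limma 3.58.1 with voom, a replicate block and leaving out each library. Members and lists were chosen with earlier results of these data known.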

Additional observations from a re-analysis of the deposited data

How the results depend on the processing

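All 6 loci kept their direction and their call under all 14 alternatives. The log2 fold change ran from 0.24 to 0.43 for TPS1, -1.74 to -1.51 for TPP1, -1.71 to -1.49 for TPP7, 0.29 to 0.47 for OSK1, 0.27 to 0.45 for OSK35 and 0.60 to 0.81 for OSK24, with the highest values under library totals; the highest adjusted p was 0.00761 (TPS1; edgeR, DESeq2 or limma). List counts within a factor of 1.5 of the main count were taken as unmoved. Such smaller shifts occurred in several lists. With library totals, for example, hexokinase loci lower numbered 5 in place of 6 and synthase-like loci lower 6 in place of 7. Beyond that factor, SnRK1 regulatory loci higher numbered 2 with upper-quartile factors and library totals, and 1 to 2 without 1 library. Green tissue loci higher numbered 0 with DESeq2 size factors, DESeq2 and the replicate block, and 0 to 1 without 1 library. Endosperm storage loci lower numbered 5 with the stricter filter, which tests fewer genes. The cause of the other shifts was not tested. The 7 ratios moved by less than the spread between libraries, both without 1 library and as ratios of counts. By CPM in place of level per length, 4 of 6 loci in ZH11 and 1 of 6 in drw1 kept their rank, since lengths differ. With the replicate number as a block, 15505 genes were called. Deviations from the genotype means correlated at -0.12 (replicate 1), 0.021 (replicate 2) and -0.098 (replicate 3) between libraries of the same number, and the best partner of a library had its number in 1 of 6 cases, so the numbers were not taken as pairs.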

Other observations

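Hexokinases, which phosphorylate glucose and of which some rice members also act as glucose sensors, form a separate branch of sugar sensing. Of 10 loci assigned to them, 3 rose, 6 fell and 1 did not pass, so 90% were called against 70.1% of all genes, with a median log2 fold change of -0.38 (edgeR quasi-likelihood test). The falls ran from -1.27 to -0.34. Of the rises, 2 were 0.55 and 1.23, and the other, the largest change in the list, was in a locus with 3 counts in all of ZH11 and 48 in all of drw1. That locus was 17.0-fold higher after scaling (95% interval 5.48 to 85.3, counting error only). It passed the filter on low counts only through drw1, where it is high, so its rise adds no support to the count of rises. With the stricter filter, 2 loci of the list were higher and 5 lower. Summed over the list, the level went from 335 ± 12.9 to 239 ± 1.06 CPM (SD, n = 3). The list's counts and median are a description, and no test of the list was made.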
